A study of Mus musculus with 50 samples.

Results

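The genes described here encode the nuclear subunits and assembly factors of respiratory complex I, NADH:ubiquinone oxidoreductase, in mammary gland (MG) tumors. They were chosen by name, as the genes whose symbol is Ndufa, Ndufb, Ndufc, Ndufs, Ndufv or Ndufaf followed by a number, or Ndufab1, with a mean of at least 0.5 RPKM (reads per kilobase of gene length, relative to the size of the library) over the 50 tumors. This gave 45 genes of the 37701 in the deposited table, and of the 16733 that reached the same mean. Every gene with a matching name reached it, so none was lost to the filter. The set was chosen with earlier results of these data known.

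The tumors came from female p53R270H/+WAPCre mice that were 8 weeks old at the start of treatment. In this model Cre recombinase under the whey acidic protein promoter switches on a heterozygous mutant p53 in the MG, and all 5 groups carry it, the controls included. The mice were injected subcutaneously every other day with vehicle, insulin, glargine, X10 or IGF1 until a tumor of 1 cm3 had formed, and were killed 24 h after the last injection. Glargine and X10 are insulins with an altered amino acid sequence, X10 and IGF1 bind the IGF1 receptor with high affinity, and the doses are not given in the sources used here. The authors selected tumors with a mesenchymal (EMT-like) appearance and a latency near the median of their group, 10 tumors in each of the 5 groups, each tumor from its own mouse and named here by its label, a treatment and a mouse number. Tumors labelled Untreated were taken as the vehicle group.

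Complex I is the entry point of electrons from NADH into the mitochondrial respiratory chain. Its peripheral arm, which holds the flavin and the iron-sulfur clusters, oxidises NADH and passes the electrons to ubiquinone, and its membrane arm, built on subunits that the mitochondrial DNA encodes, pumps protons. A shell of accessory subunits surrounds the catalytic core, and assembly factors join the modules without staying in the finished enzyme.

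The members comprised 7 core catalytic subunits (among them Ndufs1, Ndufs3, Ndufs7, Ndufs8, Ndufv1 and Ndufv2) and 29 accessory subunits. The accessory subunits were Ndufa1, Ndufa2, Ndufa3, Ndufa5, Ndufa6, Ndufa7, Ndufa8, Ndufa9, Ndufa10, Ndufa11, Ndufa12, Ndufa13, Ndufab1, Ndufb2, Ndufb3, Ndufb4, Ndufb5, Ndufb6, Ndufb7, Ndufb8, Ndufb9, Ndufb10, Ndufb11, Ndufc1, Ndufc2, Ndufs4, Ndufs5, Ndufs6 and Ndufv3. A further 7 were assembly factors (Ndufaf1 to Ndufaf7). The last 2, Ndufa4 and its paralog Ndufa4l2, carry complex I names, although Ndufa4 is now regarded as a subunit of cytochrome c oxidase, and they were kept as a class of their own.

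Library size, recovered from the steps in the RPKM values, was between 26.6 and 51.9 M reads, and the median member was supported by 1536 reads in a tumor. The lowest read number of any member in any tumor was 38.9, for Ndufa4l2. Mesenchymal markers (Vim, Col1a1, Col3a1, Pdgfrb and Zeb1) summed to between 3420 and 30593 RPKM, and none of them was at 0 in any tumor. Epithelial markers (8 genes) summed to between 12.2 and 6196 RPKM. Skeletal muscle markers (10 genes), which can come from muscle beside the gland, summed to between 5.81 and 6851 RPKM, with a median of 31.0. Brown adipocyte markers (Ucp1, Cidea and Elovl3), of a cell type rich in mitochondria, summed to at most 12.9 RPKM, with a median of 0.217. No pair of tumors was near-identical, the closest pair having a Pearson correlation of 0.982 over the tested genes. The sequence sample ids in the labels run in treatment order. If the tumors were sequenced in that order, which the ids do not state, sequencing order and treatment cannot be told apart.

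Promoter stretches are shown for some of the members whose RefSeq promoter (GRCm38.p6, 250 bases before to 50 bases after the start) held the letters of a factor known to act on nuclear genes of mitochondria. An entry was found for 39 of the 45 members. The NRF1 letters GCGCATGCG, searched on both strands, lay in 4 of the 39 member promoters (10.3%) and in 1.81% of all 27025 promoters of the table. The ETS and GABP letters CCGGAAG lay in 5 members (12.8% against 9.12% of all promoters), the YY1 letters AAGATGGCG in 5 (12.8% against 1.49%), the CREB letters TGACGTCA in 3 (7.69% against 1.88%) and the SP1 letters GGGCGG in 20 (51.3% against 35.9%). The ERR letters TCAAGGTCA lay in none of them (0.407% of all promoters). Over the 10404 promoters of genes tested here the shares were 3.55% for NRF1, 17.1% for ETS and GABP, 2.97% for YY1, 3.10% for CREB and 62.9% for SP1, so the members' shares for ETS and GABP and for SP1 were below those of expressed genes. These are counts of letters and not of occupied sites. The stretches are written 5′ to 3′ on the strand of the gene, all before the start, with the motif in capitals. In Ndufa11 and Ndufaf4 the NRF1 letters occur on both strands and overlap, so the capitals span both, and in Ndufa8 they are on the opposite strand.
Ndufaf4, chr4:24897963-24898082, + strand, NRF1: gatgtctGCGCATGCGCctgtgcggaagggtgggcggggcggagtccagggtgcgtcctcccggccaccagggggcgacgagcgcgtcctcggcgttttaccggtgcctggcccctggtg
Ndufa11, chr17:56717691-56717720, + strand, NRF1: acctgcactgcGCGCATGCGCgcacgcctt
Ndufa8, chr2:36049339-36049368, - strand, NRF1: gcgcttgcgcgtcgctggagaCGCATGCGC
Ndufs3, chr2:90904731-90904760, - strand, ETS and GABP: ccccgcgtccgcCCGGAAGaagagtcactg
Ndufb7, chr8:83566726-83566755, + strand, ETS and GABP: agcctagatgacCCGGAAGacactgaaggg
Ndufa11, chr17:56717593-56717622, + strand, CREB: tttacctttccTGACGTCAcgggcgtctct
Ndufa10, chr1:92473807-92473836, - strand, CREB: acactcagtggTGACGTCAtggcagcgcgc
Ndufb2, chr6:39592535-39592564, + strand, CREB: acgcagtgcgacgcagTGACGTCAcgggcc
The Ndufaf4 stretch lies outside every GENCODE M21 gene that has deposited values, and the others overlap such a gene (the member itself or a neighbour). GENCODE M21 genes without deposited values were not checked. The YY1 letters are not shown because all 5 matches (in Ndufa9, Ndufc1, Ndufs4, Ndufs6 and Ndufs7) lie after the start. Also left out were the ETS and GABP matches before the start of Ndufaf1 and Ndufb6, and no stretch was chosen for its SP1 letters.

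All subunits were well expressed. The median over the 45 members of the mean level was 47.0 RPKM, against 10.2 RPKM over all tested genes, and the members together took between 0.328% and 0.539% of the summed RPKM of a tumor. The highest mean levels were those of the accessory subunits Ndufb8 (200 RPKM), Ndufa7 (174.5 RPKM), Ndufa6 (161.9 RPKM), Ndufb9 (155 RPKM) and Ndufa2 (155 RPKM), which do not differ beyond their spread. The lowest were those of Ndufa4l2 (5.11 RPKM), Ndufaf1 (5.74 RPKM) and Ndufaf3 (5.94 RPKM).

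Among the core subunits, Ndufv1, which binds the flavin and NADH, had a mean of 133 RPKM over the 50 tumors (90.6 to 226). Ndufv2 (78.7 RPKM, 53.5 to 114) and Ndufs8 (77.9 RPKM, 47.8 to 122), which carry iron-sulfur clusters, followed. Ndufs3 (47.0 RPKM, 34.1 to 76.4) and Ndufs7 (45.2 RPKM, 26.7 to 93.9) of the ubiquinone module were lower. Ndufs1, the largest core subunit of the peripheral arm, was the lowest with a mean of 28.3 RPKM (14.0 to 41.3). RPKM is per length, and the length the authors divided by was recovered for all 45 members. For 29 of them it lay within 10% of the median length of the gene's GENCODE M21 transcripts. Levels of different genes thus depend on that choice of length, which was 2661 bases for Ndufs1, 2661 bases for Ndufa11 and 2529 bases for Ndufb7. The longest GENCODE M21 transcript of Ndufa11 has 918 bases, so its RPKM is low for that annotation.

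The assembly factors were expressed at lower levels than the subunits. Their mean levels lay between 5.74 and 15.9 RPKM, below the mean of each of the 29 accessory subunits (16.1 to 200 RPKM). The lowest accessory mean was that of Ndufa11, whose level depends on the length used. Ndufaf2, a paralog of the subunit Ndufa12 that holds its place during assembly, had the highest mean (15.9 RPKM, 8.22 to 26.2). The ubiquinone module factor Ndufaf4 had 9.53 RPKM (4.63 to 15.7) and its partner Ndufaf3 had 5.94 RPKM (3.68 to 9.78). Ndufaf5, an enzyme that modifies Ndufs7, and the methyltransferase Ndufaf7 had 7.46 RPKM (4.86 to 12.5) and 6.10 RPKM (4.19 to 9.35). Ndufaf6 had 7.66 RPKM (3.65 to 13.3), and Ndufaf1, part of the complex that builds the membrane arm, had 5.74 RPKM (3.48 to 8.34). Neighbours in this order overlap over most of their range. Ndufab1, the mitochondrial acyl carrier protein, had a mean of 39.8 RPKM (27.5 to 70.4).

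**Figure D1:**
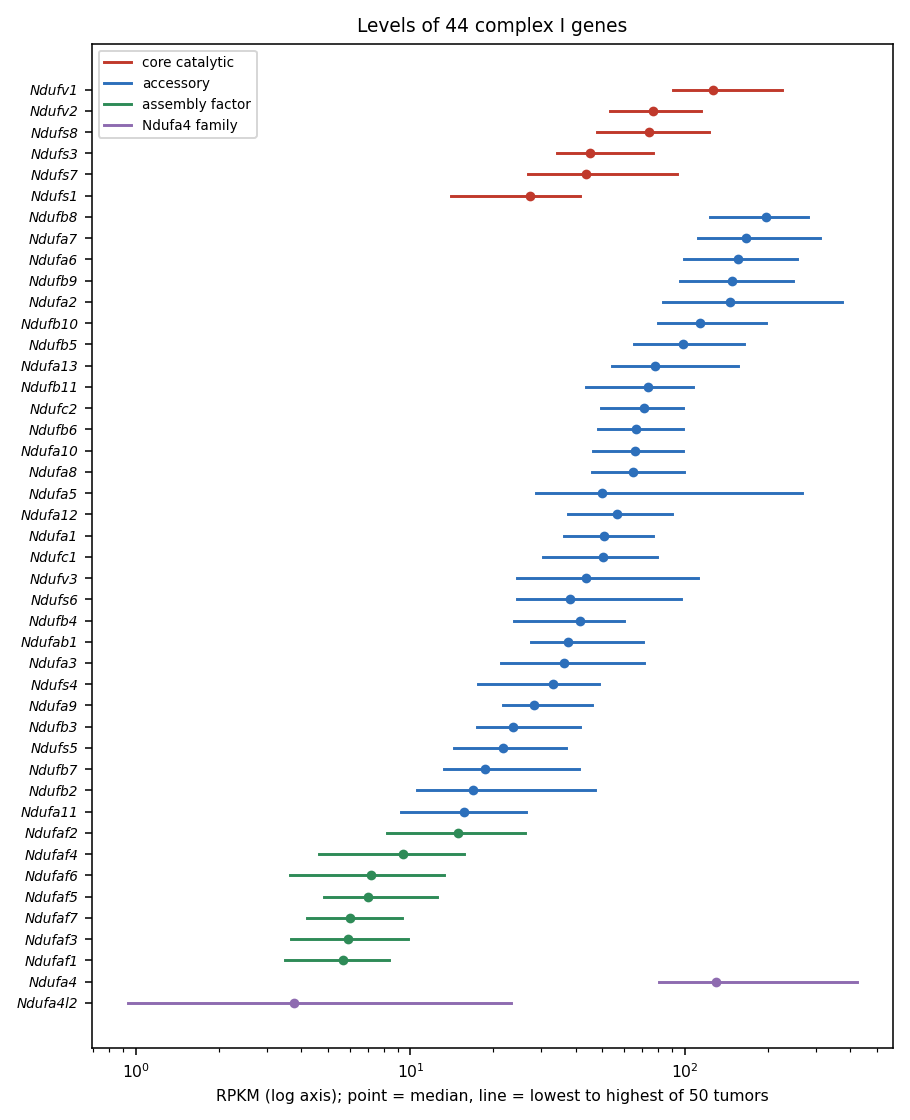
Level of 44 of the 45 complex I genes in 50 tumors, as RPKM on a log axis, with a point for the median and a line from the lowest to the highest tumor, coloured by class. The 7 assembly factors and Ndufa4l2 sit lowest, and the lines of Ndufa5 and Ndufa4l2 are the longest.

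Most members varied less between tumors than the median tested gene with a mean of at least 5 RPKM. Those genes were not matched to the members in level, and the part of level in this difference was not tested. The median SD of log2(RPKM + 0.5) over the 50 tumors was 0.30 for the members and 0.39 for the 10904 tested genes with a mean of at least 5 RPKM, and 36 of 45 members lay below the latter. Among the smallest SDs were those of Ndufaf1 (0.20), Ndufaf7 (0.25) and the accessory subunit Ndufa10 (0.25). The largest were those of Ndufa4l2 (0.85), Ndufa5 (0.62), Ndufa4 (0.51) and Ndufa2 (0.43).

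Ndufa4l2, the paralog of Ndufa4 known to be induced under hypoxia, ranged from 0.938 RPKM in Untreated_161 to 23.2 RPKM in IGF1_160, a ratio of 24.8. In the vehicle group the lowest, median and highest tumors had 0.938, 3.15 and 18.3 RPKM. In the insulin group they had 2.37, 4.49 and 7.55 RPKM, and in the glargine group 1.85, 3.36 and 21.9 RPKM. In the X10 group they had 1.46, 3.23 and 7.29 RPKM, and in the IGF1 group 1.17, 5.64 and 23.2 RPKM. The 5 groups overlapped over most of this range, and the 3 highest tumors (Untreated_195, glargine_47 and IGF1_160) came from 3 different groups. In the limma fit, on the log2(RPKM + 0.5) scale that understates changes of genes this low, insulin tumors differed from vehicle by 0.26 (adjusted p = 0.835), glargine tumors by 0.27 (0.932), X10 tumors by 0.08 (0.961) and IGF1 tumors by 0.61 (0.692).

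Across the 50 tumors Ndufa4l2 rose with the hypoxia score, the mean z score of 9 genes known to respond to low oxygen (Car9, Vegfa, Egln3, Pdk1, Ankrd37, Bnip3, Slc2a1, Adm and Ero1l). Pearson's r was 0.51 (permutation test with 100000 resamples, p = 0.00017, adjusted p = 0.00034 over the 2 relations tested) and Spearman's rho was 0.56 (p = 6.0e-05, adjusted p = 0.00012). With the single gene Car9 r was 0.36 (permutation p = 0.0099, adjusted p = 0.0099) and rho was 0.43 (permutation p = 0.0017, adjusted p = 0.0017). After the values were centred within each treatment group, r with the score was 0.53, and without the 2 tumors farthest from the median score it was 0.50. Without the 3 tumors with the highest Ndufa4l2 it was 0.43. Each of the 9 genes had a positive r with Ndufa4l2, from 0.35 (Pdk1) to 0.57 (Ankrd37). The mean z score of all 45 members had an r of -0.07 with the same hypoxia score.

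**Figure D2:**
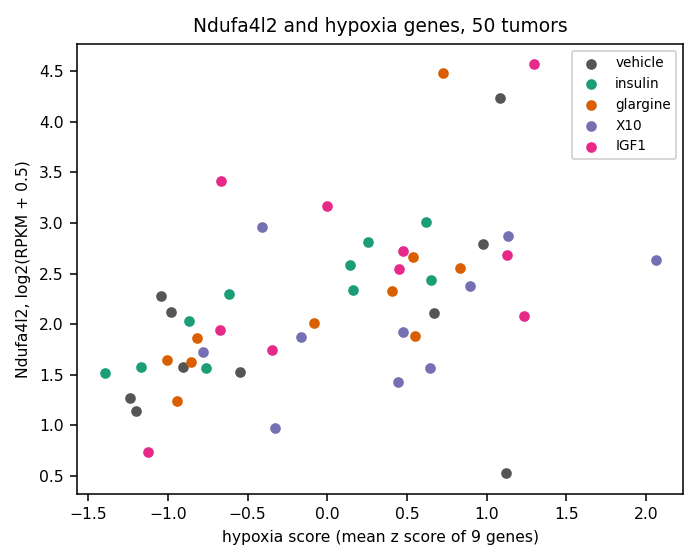
Ndufa4l2 as log2(RPKM + 0.5) against the hypoxia score, the mean z score of 9 hypoxia genes, for 50 tumors coloured by treatment. Ndufa4l2 is higher in tumors with a higher score (r = 0.51), with no separation of the 5 treatments.

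Ndufa4 itself was high, with a mean of 155 RPKM, and showed a wide range in the vehicle group (109, 170 and 422 RPKM for the lowest, median and highest tumor). The insulin tumors had 88.1, 127.8 and 214 RPKM, the glargine tumors 108, 143.01 and 277 RPKM, the X10 tumors 96.9, 122 and 208 RPKM and the IGF1 tumors 80.1, 141 and 249 RPKM. The groups overlapped, and the vehicle group held the highest tumor, Untreated_174. That tumor also had the highest summed epithelial markers of the 50 tumors (6196 RPKM), whose part in the Ndufa4 level was not tested.

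A few members stood out in a single tumor. The highest tumor was more than 1 log2 unit above the gene's median for 9 of the 45 members (20%), and for 38.3% of tested genes with a mean of at least 5 RPKM. Of these 9, 5 (Ndufa4l2, Ndufa2, Ndufv3, Ndufb7 and Ndufs7) had IGF1_160 as the highest tumor. IGF1_160 had the lowest slope of log2 level on transcript length of all tumors (-0.17 log2 units per doubling of length), so its short transcripts were high relative to its long ones. The windows used next for neighbouring genes were chosen after the values were seen.

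Ndufa5 (chr6:24518666-24528013), an accessory subunit of the peripheral arm, had 267 RPKM in IGF1_128 against a median of 49.8 RPKM over the 50 tumors, 2.41 log2 units above it. The next highest IGF1 tumor had 80.5 RPKM. Wasl, which starts 0.10 Mb away, had 151 RPKM in IGF1_128 against a median of 30.3 (2.29 log2 units), and Aass, 1.45 Mb on the other side, had 24.5 RPKM against 1.88 (3.395 log2 units). Fam3c, at a distance of 2.21 Mb, and Pot1a, at 1.23 Mb on the side of Wasl, differed from their medians by 0.17 and -0.19 log2 units. The 17 genes within 5 Mb of Ndufa5 had a median of -0.19 log2 units. Farther out on the side of Aass, Naa38 (5.67 Mb) and Cttnbp2 (6.15 Mb) were 2.47 and 1.61 log2 units above their medians. No other gene from 5 to 8 Mb away was more than 1 log2 unit above its median. For both Wasl and Aass, IGF1_128 was the tumor with the second highest level. Aass, with a median this low, reached the mean of 5 RPKM asked of neighbours through a few high tumors, IGF1_128 among them, so its high value there was partly built into its choice. The second tumor with a high Ndufa5 was glargine_63, with 172 RPKM.

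Ndufb2 (chr6:39592574-39603382), an accessory subunit of the membrane arm, had 47.1 RPKM in glargine_62 against a median of 16.9 RPKM, 1.46 log2 units above it. From 3 Mb before Ndufb2 to 0.25 Mb after it there were 20 other genes with a mean of at least 5 RPKM. Their median was 1.94 log2 units above their own medians in this tumor, and for 15 of the 20 glargine_62 was the highest of the 50 tumors. Ptn, among these 20, had a median of 2.84 RPKM and 30.6 RPKM in glargine_62. It reached the mean of 5 RPKM through high tumors, so its high value there was partly built into its choice. Braf, whose start is 0.01 Mb away, had 48.9 RPKM against a median of 12.3, and Mrps33, 0.21 Mb away, had 83.5 RPKM against 18.6. The rise did not end at 3 Mb, since the 15 genes from 3 to 8 Mb before Ndufb2 had a median of 0.84 log2 units and 6 of them were more than 1 log2 unit above their medians. The 14 genes from 0.25 to 8 Mb after Ndufb2 were at most 0.58 log2 units above their medians. Ndufs6 (chr13:73319838-73328542) had 96.8 RPKM in Untreated_195 against a median of 38.0, and the 36 genes within 5 Mb of it had a median of 0.61 log2 units above their own. For the remaining members with such a tumor the neighbours within 5 Mb had medians between -0.10 and 0.35 log2 units. A median like that around Ndufs6 was also seen around members without such a tumor, each taken in its own highest tumor. It was 0.61 for Ndufs5 in IGF1_158, 0.54 for Ndufa9 in Untreated_195 and 0.53 for Ndufa3 in IGF1_160, and lower for the others.

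**Figure D3:**
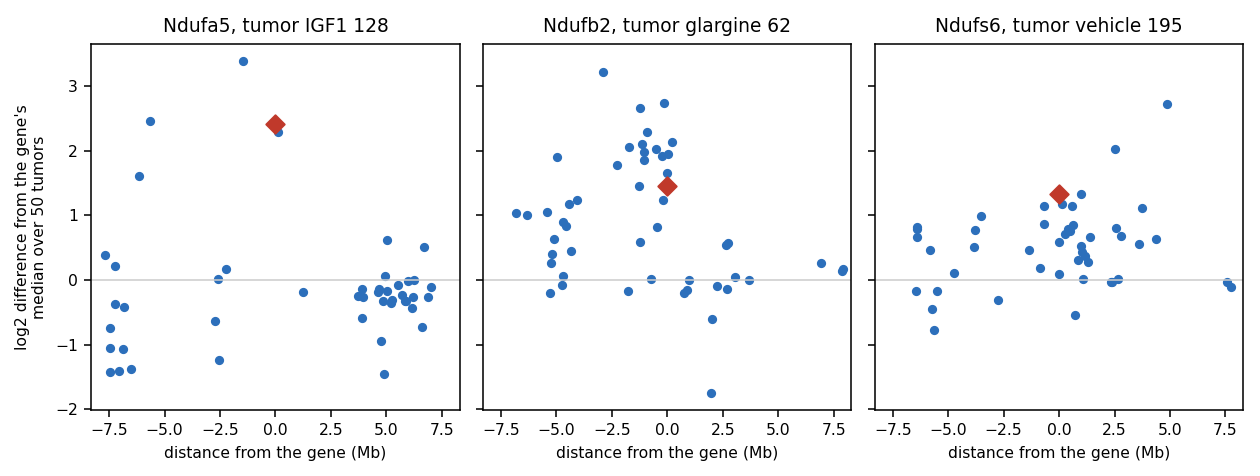
Difference of each gene from its own median over 50 tumors, on the log2(RPKM + 0.5) scale, against its distance in Mb from Ndufa5 in tumor IGF1_128, Ndufb2 in glargine_62 and Ndufs6 in Untreated_195, with the member as a red diamond and its neighbours with a mean of at least 5 RPKM as blue points. Around Ndufb2 most genes before it are high, those within 3 Mb most of all, and those from 0.25 Mb after it are not, and around Ndufa5 its neighbour Wasl is high.

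The members rose and fell together from tumor to tumor. Over the 990 pairs of members the mean Pearson r across the 50 tumors was 0.32, with 913 pairs above 0 and 192 above 0.5, and over pairs of tested genes with a mean of at least 5 RPKM it was 0.03. It was 0.38 among the 36 core and accessory subunits, 0.11 among the assembly factors, and 0.21 between the subunits and the assembly factors. After centring within treatment groups the mean over all members was 0.31, nearly as high as before. The points are 50 libraries, and the genes share those libraries, so these values are descriptions.

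The subunits with the highest mean r with the other members were Ndufb10 (0.50), Ndufb9 (0.43) and Ndufb5 (0.42), all of the membrane arm. The lowest were Ndufs1 (-0.02), Ndufaf1 (0.06) and Ndufaf4 (0.07). Ndufs1 was negatively related to several members, with r of -0.60 with Ndufb7 and -0.56 with Ndufa4l2, and positively to Ndufaf4 (0.57), Ndufa10 (0.44) and Ndufaf5 (0.41).

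Transcript length moved with this pattern. In each tumor the deviation of every gene from its median was regressed on the log2 length of its longest GENCODE M21 transcript, and the slope lay between -0.17 (IGF1_160) and 0.11 (IGF1_124) log2 units per doubling. The mean z score of the 45 members had an r of -0.65 with this slope (rho -0.64, and -0.63 after centring within groups). The members are short, with a median longest transcript of 1200 bases against 2882 bases over the tested genes, and 41 of 45 had a negative r with the slope. Ndufs7 had -0.76, Ndufa3 -0.75 and Ndufs1 0.51. Of the 11 members with a longest transcript above 2000 bases, 9 also had a negative r. Among them were Ndufb7 (4435 bases, r of -0.68) and Ndufab1 (3479 bases, -0.19). The longest transcript can exceed the length the authors divided by, which was 2529 bases for Ndufb7 and 502 bases for Ndufab1. How far length orders the members was not tested. With the slope removed from each gene, the mean r over pairs of members was 0.22 and that of Ndufs1 with the other members was 0.22, where the mean over other tested genes was 0.04. Without the 3 tumors with the lowest slopes (IGF1_160, glargine_47 and Untreated_174) the mean r was 0.31. What the slope stands for was not tested.

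Pairs of members on the same chromosome were more alike than pairs on different ones. The 16 pairs within 20 Mb, a limit chosen after the values were seen, had a median r of 0.53, the 39 pairs farther apart on one chromosome had 0.44 and the 935 pairs on different chromosomes had 0.34. With the length slope removed these medians were 0.49, 0.41 and 0.22. The same order held over the 10822 tested genes with a mean of at least 5 RPKM and a position, with medians of 0.16, 0.10 and 0.02. The pair with the highest r of all was Ndufa13 (chr8:69894180-69902558) and Ndufb7 (chr8:83566671-83571626), with 0.81, 13.7 Mb apart. Next was the assembly factor Ndufaf2 (chr13:108002715-108158623) with the subunit Ndufs4 (chr13:114287795-114388258), with 0.79, 6.29 Mb apart, and these remained at 0.70 and 0.75 with the slope removed. The core subunits Ndufs8 and Ndufv1, 0.0985 Mb apart on chromosome 19, had 0.61.

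**Figure D4:**
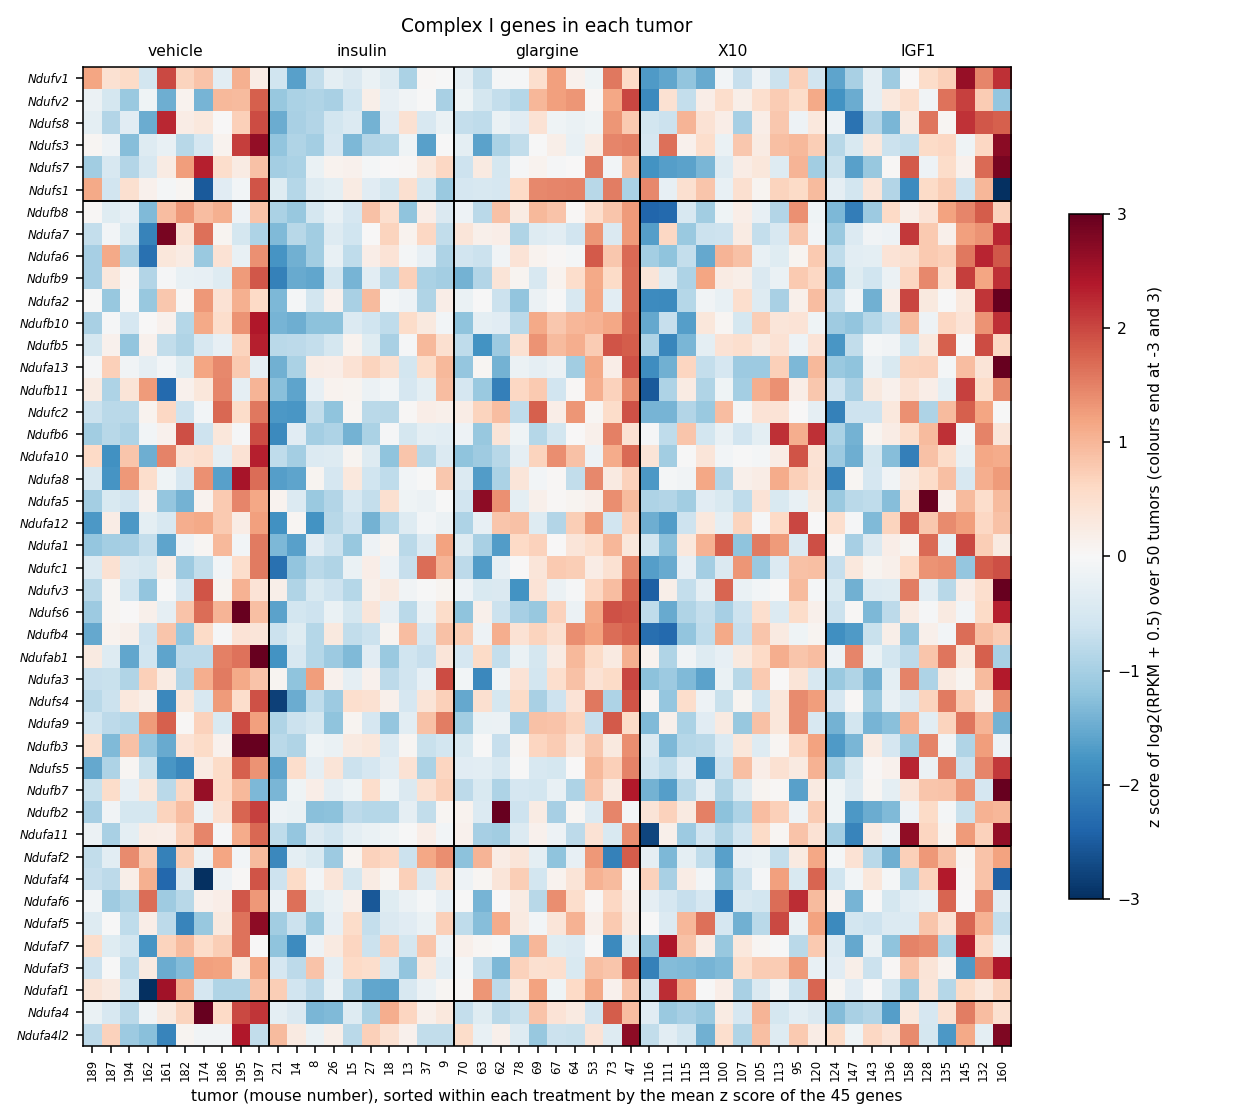
Level of 44 of the 45 complex I genes (rows, by class) in 50 tumors (columns, by treatment and then by the mean z score of the 45 genes), as z scores of log2(RPKM + 0.5) with red for above and blue for below the mean of the gene. Most rows change colour together within each treatment, while Ndufs1 and the assembly factors follow less closely.

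The tumor in which the members were highest was Untreated_197, with a mean z score of 1.31 and 41 of 45 members above their own median. Glargine 47 (1.20), IGF1_160 (1.11) and IGF1_132 (1.04) followed. The lowest was insulin_21, with -1.04 and 6 members above their median, followed by X10_116 (-0.95) and IGF1_124 (-0.84). The median member deviated by between -0.15 and 0.46 log2 units from its median in the vehicle tumors, between -0.29 and 0.05 in the insulin tumors, between -0.11 and 0.43 in the glargine tumors, between -0.32 and 0.20 in the X10 tumors and between -0.26 and 0.40 in the IGF1 tumors. The groups overlapped. The SD between tumors was 0.11 log2 units in the insulin group and between 0.18 and 0.22 in the other 4, a difference that was not tested.

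The genes outside the set that were most like the members were found by the same correlation. The 10 genes outside the set with the highest mean r with the 45 members, of 10859 compared, were Atp5j2 (0.48), Atp5k (0.46), Cox6a1 (0.45), Atp5o (0.45), Hscb (0.44), Mrps25 (0.44), Atp5g1 (0.43), Pet100 (0.43), Atp5e (0.43) and Mrpl17 (0.43). Atp5j2, Atp5k, Atp5o, Atp5g1 and Atp5e encode subunits of the ATP synthase, Cox6a1 a subunit of cytochrome c oxidase, and Mrps25 and Mrpl17 proteins of the mitochondrial ribosome. Hscb acts in iron-sulfur cluster assembly and Pet100 in the assembly of cytochrome c oxidase. The median longest transcript was 1445 bases for these 10 genes and 8413 bases for the 10 genes with the lowest mean r. The mean z score of the members had an r of 0.72 with that of the 6 complex II genes and 0.45 with that of 11 other genes of complex I assembly. With the 7 complex I genes of the mitochondrial DNA (mt-Nd1 to mt-Nd6 and mt-Nd4l) r was -0.26 (rho -0.16). These transcripts, at 2265 to 10044 RPKM in sum, were not higher in the tumors with high nuclear subunits. With the skeletal muscle score r was 0.40 (rho 0.47, and 0.44 after centring), with the epithelial score it was -0.04 and with library size 0.12. With the summed RPKM of all genes in a tumor r was 0.64 (rho 0.70, and 0.64 after centring), about the size of the relation with the length slope. The mean pairwise r of the members was 0.29 after quantile normalization and 0.30 after upper quartile scaling, against 0.32 without them. The part of the summed RPKM in the shared pattern was not tested further. The mean pairwise r of the members without the 5 tumors with the highest muscle score was 0.31.

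The treatment comparisons asked whether chronic exposure to insulin, an insulin analogue or IGF1 left complex I genes at another level in the resulting tumors. In bulk tumors, fewer cells of a type and less RNA per cell cannot be told apart. With limma on log2(RPKM + 0.5), fitted to the 50 tumors together and adjusted over the 16733 tested genes (Benjamini-Hochberg), none of the 45 members reached an adjusted p under 0.05 in any of 8 comparisons or in the F test over the 5 groups. In the F test 17 of all tested genes (0.102%) passed and 7 members (15.6%) had an unadjusted p under 0.05, where 13.1% of tested genes had. With the epithelial score in that fit the members with such a p were 11. For this and the other alternative fits below, the share of all tested genes is not given here. The smallest adjusted p among members in the F test was 0.190, for Ndufv1. In every comparison the groups overlapped for every member. Comparisons that share a group are not independent of each other. The members also moved together across tumors (mean pairwise r of 0.32), so the counts of members below are not counts of independent genes.

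Insulin tumors had lower values than vehicle tumors for 42 of 45 members, with a median log2 difference of -0.14 where the median over all tested genes was 0.03. No gene passed the adjusted threshold (0%), 9 members were lower at an unadjusted p under 0.05 (20% of members and 5.17% of tested genes) and 0 were higher (5.98% of tested genes). Over all genes 1865 had an unadjusted p under 0.05 in this limma fit. Ndufv1 had 115.4, 148 and 197.01 RPKM for the lowest, median and highest vehicle tumor and 91.9, 119 and 131 RPKM for the insulin tumors. All 10 insulin tumors lay below the vehicle mean, but the ranges overlapped. The log2 difference was -0.35 ± 0.12 (SE), with an adjusted p of 0.317. Ndufb9, a membrane arm subunit, had 121, 147.2 and 230 RPKM in vehicle and 95.8, 121 and 178 RPKM in insulin tumors (-0.33 ± 0.13, adjusted p = 0.364). Ndufs6, a zinc-binding subunit, had 28.7, 46.0 and 96.8 RPKM in vehicle and 24.5, 35.2 and 46.6 RPKM in insulin tumors (-0.43 ± 0.18, adjusted p = 0.370). All 7 core subunits had a negative difference, with a median of -0.21. In the same comparison 3 of 8 epithelial markers were lower and 3 of 6 leukocyte markers higher at an unadjusted p under 0.05, and their part was not tested.

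Glargine tumors did not differ detectably from vehicle tumors. Of the members 22 were higher and 23 lower, with a median difference of -0.01. No gene passed the adjusted threshold (0%, with 1043 genes at an unadjusted p under 0.05 in limma), 1 member was higher (2.22% of members and 3.31% of tested genes) and 0 were lower (2.92% of tested genes) at an unadjusted p under 0.05. That member was Ndufb4, a subunit of the membrane arm, with 28.5, 41.4 and 48.5 RPKM in vehicle and 38.9, 49.3 and 60.1 RPKM in glargine tumors (0.33 ± 0.13, adjusted p = 0.789). The interval of the difference ran from 0.07 to 0.59. Ndufa5 (0.44 ± 0.26, adjusted p = 0.811) and Ndufaf4 (0.22 ± 0.14, adjusted p = 0.823) came next.

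X10 tumors had lower values than vehicle tumors for 32 of 45 members, with a median of -0.06 against -0.03 over all tested genes. Among tested genes 11 passed the adjusted threshold (0.0657%). At an unadjusted p under 0.05, 6 members were lower (13.3% of members and 8.25% of tested genes) and 0 were higher (2.75% of tested genes). Ndufv1 had 90.6, 112 and 151 RPKM in X10 tumors, with 9 of 10 below the vehicle mean (-0.41 ± 0.12, adjusted p = 0.195). Ndufa4 (-0.58 ± 0.22, adjusted p = 0.319) and Ndufs6 (-0.46 ± 0.18, adjusted p = 0.327) followed.

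IGF1 tumors had higher values than vehicle tumors for 26 members and lower for 19, with a median of 0.03. Among tested genes 1 passed the adjusted threshold (0.00598%). At an unadjusted p under 0.05, 1 member was higher (2.22% of members and 4.49% of tested genes) and 2 were lower (4.44% of members and 4.34% of tested genes). Ndufa6 had 99.1, 158.7 and 211.5 RPKM in vehicle and 135.2, 179.8 and 255.6 RPKM in IGF1 tumors (0.27 ± 0.13, adjusted p = 0.541), with overlapping ranges. Ndufa4 was lower (-0.45 ± 0.22, adjusted p = 0.543). The counts were near those of all genes, and with only the compared groups in the fit no member had such a p. Of the epithelial markers 5 of 8 were lower in IGF1 tumors at an unadjusted p under 0.05, and their part was not tested.

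The 20 tumors of the compounds with high affinity for the IGF1 receptor were compared with the 30 others. Of the members 26 were higher and 19 lower in X10 and IGF1 tumors, with a median of 0.01 against -0.02 over all tested genes. Among tested genes 26 passed the adjusted threshold (0.155%). At an unadjusted p under 0.05, 4 members were higher (8.89% of members and 2.97% of tested genes) and 1 was lower (2.22% of members and 7.57% of tested genes). The higher ones were Ndufa1 (0.19 ± 0.08, adjusted p = 0.380), Ndufs3 (0.16 ± 0.07, adjusted p = 0.399), Ndufb9 (0.19 ± 0.08, adjusted p = 0.405) and Ndufb6, and the lower one was Ndufb4. Ndufa1, an X-linked subunit of the membrane arm, had 37.2, 47.0 and 70.4 RPKM in vehicle, 36.8, 46.0 and 65.4 in insulin, 36.4, 55.0 and 62.6 in glargine, 39.6, 59.0 and 75.9 in X10 and 41.7, 52.6 and 76.5 RPKM in IGF1 tumors, with overlap throughout. The interval of the Ndufa1 difference ran from 0.02 to 0.35. In the same comparison 3 of 9 hypoxia genes were higher and 2 of 5 mesenchymal markers lower at an unadjusted p under 0.05, and their part was not tested. With the hypoxia score or the epithelial score in the fit, 3 members had such a p in place of 5.

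The insulins were also compared with each other, 3 pairs in all, at the doses of the study. Glargine and insulin differ in a few residues of the chains. Glargine tumors had higher values than insulin tumors for 42 of 45 members, with a median of 0.16 where all tested genes had -0.01. No gene passed the adjusted threshold (0%, with 663 genes at an unadjusted p under 0.05 in limma). At an unadjusted p under 0.05, 11 members were higher (24.4% of members and 2.10% of tested genes) and 0 were lower (1.86% of tested genes). Ndufc2, a membrane arm subunit, had 52.2, 61.7 and 72.97 RPKM in insulin and 61.9, 78.4 and 98.3 RPKM in glargine tumors (0.33 ± 0.11, interval 0.12 to 0.55, adjusted p = 0.990). Ndufb9 (0.36 ± 0.13) and Ndufb4 (0.35 ± 0.13) had the same adjusted p of 0.990. In each of these 3 genes 9 of 10 glargine tumors lay above the insulin mean. In the same comparison 3 of 5 tested adipocyte markers and 2 of 8 epithelial markers were higher at an unadjusted p under 0.05, and their part was not tested. With only the compared groups in the fit 17 members had such a p, and the share of all tested genes in that fit is not given here.

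X10 tumors had higher values than insulin tumors for 28 members, with a median of 0.05 against -0.07 over all tested genes. Among tested genes 17 passed (0.102%). There were 6 members higher at an unadjusted p under 0.05 (13.3% of members and 3.02% of tested genes) and 0 were lower (8.29% of tested genes). Ndufs3, a core subunit of the ubiquinone module, had 34.1, 39.1 and 46.1 RPKM in insulin and 41.9, 51.9 and 62.8 RPKM in X10 tumors, and all 10 X10 tumors lay above the insulin mean (0.36 ± 0.11, interval 0.14 to 0.59, adjusted p = 0.146). Ndufb9 (0.35 ± 0.13, adjusted p = 0.248) and Ndufb6 (0.29 ± 0.11, adjusted p = 0.249) followed. In the same comparison 2 of 9 hypoxia genes and 1 of 8 epithelial markers were higher at that p, and their part was not tested. With upper quartile scaling 10 members, with quantile normalization 11 and with only the compared groups in the fit 10 had an unadjusted p under 0.05. The shares of all tested genes in these fits are not given here.

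Between X10 and glargine tumors the smallest p of any member was that of Ndufb4. Among tested genes 298 passed the adjusted threshold in this comparison (1.78%), and none was a member. At an unadjusted p under 0.05, 5 members were lower in X10 tumors (11.1% of members and 9.59% of tested genes) and 0 were higher (2.06% of tested genes). Ndufb4 had 38.9, 49.3 and 60.1 RPKM in glargine and 23.8, 36.8 and 52.0 RPKM in X10 tumors, and 9 of 10 X10 tumors lay below the glargine mean. The log2 difference was -0.46 ± 0.13 (interval -0.72 to -0.20), with an adjusted p of 0.0523. With the skeletal muscle and adipocyte scores in the fit the adjusted p was 0.0335, and over all alternatives the smallest adjusted p of any member lay between 0.0335 and 0.114. Ndufv1 (-0.31 ± 0.12, adjusted p = 0.221) and Ndufb8 (-0.30 ± 0.12, adjusted p = 0.248) followed. With the length slope in the fit 3 members, in place of 5, had an unadjusted p under 0.05. Ndufa5 had the largest difference of all members here (-0.65 ± 0.26, adjusted p = 0.25), with glargine_63 as its highest glargine tumor.

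**Figure D5:**
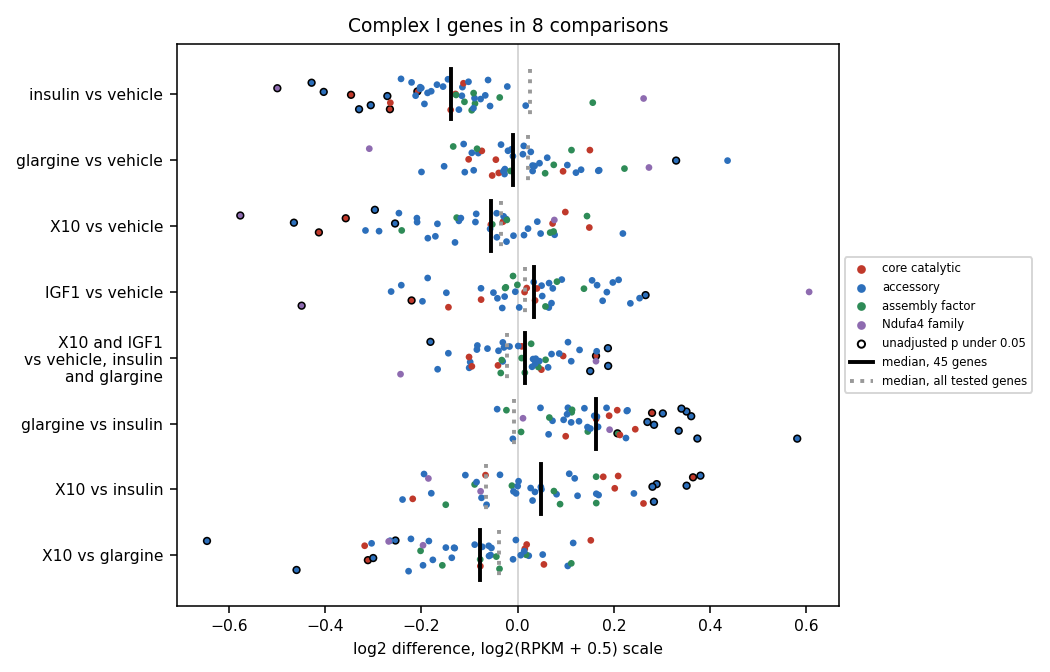
Difference of each of the 45 complex I genes in 8 comparisons, on the log2(RPKM + 0.5) scale, with a point per gene coloured by class, a black ring for an unadjusted p under 0.05, a solid line for the median of the 45 genes and a dotted line for that of all tested genes. The medians lie at -0.14 for insulin against vehicle and 0.16 for glargine against insulin, and between -0.08 and 0.05 elsewhere.

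Other genes of the pathway were tested from lists made with earlier results of these data known. Of 7 complex I genes of the mitochondrial DNA, 11 other complex I assembly genes and 6 complex II genes none had an adjusted p under 0.05 in any of the 8 comparisons. At an unadjusted p under 0.05 the mitochondrial genes had at most 2 of 7 higher and 0 lower in a comparison, and complex II had 0 higher and at most 1 lower (Sdhc). Of the assembly genes 4 of 11 (1 higher and 3 lower) had such a p in X10 against vehicle. There Chchd4, which introduces disulfide bonds into imported proteins, had -0.54 ± 0.18 (adjusted p = 0.248), Ecsit, an assembly factor of the membrane arm, had -0.42 ± 0.13 (adjusted p = 0.219) and Nubpl, which delivers iron-sulfur clusters to complex I, had 0.38 ± 0.15 (adjusted p = 0.348). mt-Nd3 was higher in X10 tumors than in vehicle (0.48 ± 0.18, adjusted p = 0.327), insulin (0.55 ± 0.18, adjusted p = 0.187) and glargine tumors (0.44 ± 0.18, adjusted p = 0.281) at an unadjusted p under 0.05. The smallest unadjusted p of these lists was that of Chchd4 in insulin against vehicle (-0.68 ± 0.18, adjusted p = 0.198). Of 12 tested regulators of mitochondrial biogenesis, 1 passed: Pprc1, a coactivator related to PGC-1alpha, fell by 0.51 on the log2 scale in X10 against vehicle (SE 0.11, adjusted p = 0.0473). Ppargc1a itself had a mean of 0.551 RPKM.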

How the data were processed

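RNA of 50 MG tumors was poly-A selected, prepared with an Ion Total RNA-Seq kit and sequenced on Ion PI chips. The authors deposited RPKM values per gene. The submitters' processing notes name GRCm38, TopHat2 2.0.10, Bowtie2, HTSeq 0.6.1 and DESeq2 1.2.10, none of which was rerun here. Library size (26.6 to 51.9 M reads) and gene length were recovered from the steps of the RPKM values.

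The members and lists were chosen with earlier results of these data known. Deposited RPKM values were tested as log2(RPKM + 0.5) with limma 3.58.1 in R 4.3.3, with an intensity trend and all 5 groups in the fit, for 16733 genes with a mean of at least 0.5 RPKM, with Benjamini-Hochberg adjustment. Values after ± are SE, and intervals are 95% intervals of that fit. Tumors are separate mice. The 2 relations of Ndufa4l2 used two-sided permutation tests with 100000 resamples (scipy 1.17.1).

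Members named by rule were the core subunits, assembly factors, Ndufab1, Ndufa4 and Ndufa4l2, the highest and lowest levels, SDs and correlations, and the 3 smallest p-values of each comparison. Others were named after their values were seen. The values of 1 core subunit are not reported here, although it is in every count and median. Alternatives changed the pseudocount, the filter, the scaling, the trend, the groups in the fit and covariates.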

Additional observations from a re-analysis of the deposited data

Results flagged for a closer look

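In each treatment group of 10 tumors, the highest and lowest tumor were compared with the others for 29 named members. In 11 sets of a gene and a group 1 tumor lay far from the nearest of the others, measured against the range of its group (Dixon's ratio). Chance alone sets a tumor apart in about 1 of 20 groups when values are normally distributed, and the ratio was taken on RPKM values that were not log-transformed. Some of the 29 members were named for a high level or a large spread in these same tumors. The 11 sets are therefore a description and not a test.

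Ndufa4l2 was apart in 3 tumors, with 18.3 RPKM in Untreated_195 (next highest in its group 6.42), 21.9 RPKM in glargine_47 (next 5.85) and 23.2 RPKM in IGF1_160 (next 10.2). Ndufa5 was apart in glargine_63 with 172 RPKM (next 98.2) and in IGF1_128 with 267 RPKM (next 80.5). Ndufs6 was apart in Untreated_195 with 96.8 RPKM (next 64.5) and in IGF1_160 with 78.5 RPKM (next 46.9). Ndufs3 was apart in IGF1_160 with 76.4 RPKM (next 51.8). Ndufa10 had 91.4 RPKM in X10_95 (next 71.2), Ndufaf7 had 9.35 RPKM in X10_111 (next 7.04) and Ndufaf6 had 11.5 RPKM in insulin_14 (next 7.73). Each of these was the highest tumor of its group.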

How the results depend on the processing

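No direction of a named gene reversed, and 328 of the alternative summary values and 307 of those of single genes kept their direction and their side of the threshold. The covariates epithelium score and transcript length slope were chosen after seeing the data. With skeletal muscle and adipocyte scores as covariates, 1 member passed in X10 against glargine (Ndufb4, -0.47, adjusted p = 0.0335), as did 1 with the epithelium score (-0.47, adjusted p = 0.0452), where 0 passed without them. Counts of members at an unadjusted p under 0.05 moved as follows. The shares of all tested genes under these alternatives are not given here, so a moved count is not read as a result about the members. With only the groups compared in the fit they were 0 for IGF1 against vehicle, 17 for glargine against insulin and 10 for X10 against insulin. For X10 against insulin they were 11 with quantile normalization and 10 with upper quartile scaling. For X10 and IGF1 against the other groups they were 3 with the hypoxia score and 3 with the epithelium score. The count for X10 against glargine was 3 with the length slope, and in the F test it was 11 with the epithelium score. The cause was not tested. The fit of only the groups compared was not run for the pooled comparison or the F test.

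No paired analysis was possible because the mouse numbers differ between the groups. With 10 tumors a group the median SE of a member's difference was 0.13 log2 units. The lowest member in any tumor had 38.9 reads, which limits the precision of Ndufa4l2 most.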
